A study of Mus musculus with 15 samples.

Results

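Neurexins, neuroligins and the scaffold proteins of the postsynaptic density hold the sides of a synapse together, and 9 of their genes were followed in fibroblasts that received a proneural transcription factor. The 9 genes were listed by symbol and matched to Ensembl gene IDs, a rule that uses no measured value, though the list was drawn up with earlier results of these data known. They are the neurexins Nrxn2 and Nrxn3, the neuroligins Nlgn1, Nlgn2 and Nlgn3, and the scaffolds Dlg4, Homer1, Shank1 and Shank2. All 9 were found among the 43432 genes of the count table, and all 9 passed the filter on low counts that left 16872 genes to test. Of these, 4 (Nrxn2, Nrxn3, Nlgn3 and Shank1) had at most 11 reads over all 3 controls and passed because of their day-13 reads, and Nlgn1, with 7 control reads, passed because of the infected libraries, so the number of members called is given below as a description.

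Neurexins sit in the membrane of the sending neuron and bind neuroligins on the receiving neuron across the cleft, and the pair helps to specify where a synapse forms and what kind it becomes. Inside the receiving neuron the tails of neuroligins bind PSD-95, the product of Dlg4, which also holds glutamate receptors. Shank proteins lie one layer deeper and are tied by Homer proteins to metabotropic glutamate receptors and to stores of calcium. In neurons these genes are transcribed from several start sites and heavily spliced, and counts per gene cannot separate long from short neurexins or the short, activity-induced Homer1 form from the long forms.

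PolyA RNA of mouse embryonic fibroblasts (MEF, connective-tissue cells grown from embryos) was sequenced in 15 libraries, 3 (a, b and c) in each of 5 groups. Of the 5 groups, 4 were infected with lentivirus carrying Neurog1 or Neurog3 (labelled Ngn1 and Ngn3), transcription factors of the neurogenin family. These 4 groups were under doxycycline induction and were collected at 24 hours (day 1) or at day 13. Neuronal medium replaced the serum medium on day 2, so the day-13 groups differ from day 1 in time and in medium, which cannot be told apart. The labels of the fifth group say only that it is the control, without stating which virus, doxycycline, medium or culture time it had. Embryo strain and age are not stated either, and all 5 groups carry the same cell type label. Whether libraries a, b and c come from separate cultures is not stated, and the p-values therefore cover only the spread among the libraries at hand, which may be technical.

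The libraries held 14869015 to 17859844 counts and 19968 to 22856 genes with a read. Neurog1 had 16252 to 80443 counts in the libraries labelled with it, Neurog3 had 20393 to 98008 in its own, and either had 0 to 13 elsewhere. At day 1 library b held the most, 65277 for Neurog1 against 31250 and 16252, and 52069 for Neurog3 against 20393 and 20429. All 10 listed fibroblast markers were detected in every group, with a summed level of 3800 to 7870 CPM (counts scaled by library size) in the controls, 3500 to 5930 at day 1 and 14500 to 41100 at day 13. The 10 listed neuron markers, none of them among the 9 genes, summed to 84 to 99.7 CPM in the controls, 73 to 214 at day 1 and 686 to 1610 at day 13. At day 1 library b of each factor stood above the other libraries in this sum, at 214 for Neurog1 and 206 for Neurog3 against 73 to 102. Most of it was Tubb3, at 189 and 185 CPM in these libraries against 49.2 to 70.6 CPM in the other day-1 libraries. Map2 was at 2.61 to 5.33 CPM at day 1 against 10.9 to 33.9 CPM in the controls. By the test given below, 0 of the 10 neuron markers were called higher and 2 lower for each factor at day 1. Of all genes, 6.78% and 7.19% were called higher and 5.42% and 5.59% lower (Neurog1, Neurog3). Other marker sums differed between the groups as well. Astrocyte and oligodendrocyte markers summed to 44.7 to 50.9 CPM in the controls, 28.9 to 36.8 at day 1 and 61.4 to 78.6 at day 13, and Schwann and neural crest markers to 12.7 to 16.4, 6.15 to 13.8 and 11.5 to 57.9. Epithelial markers summed to 20.5 to 30.4 CPM in the controls, 21.9 to 98.4 at day 1 and 0.111 to 0.537 at day 13. Skeletal muscle markers went from 114 to 148 CPM in the controls to 24.8 to 50.6 at day 1 and 15.6 to 128 at day 13, macrophage markers from 146 to 232 to 34.7 to 77.3 and 17 to 277, and endothelial markers from 14.4 to 54.8 to 3.06 to 11.5 and 11.9 to 19.3. The part of these cell types in the results below was not tested. In bulk RNA, fewer cells of a type and less RNA per cell cannot be told apart, and this holds for every level given here.

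Promoter sequences of 5 of the 9 genes were in the RefSeq table (GRCm38.p6, from 250 bases before to 50 after each transcription start, read 5′ to 3′ on the gene's strand), in 11 windows. Nrxn2, Nlgn3, Shank1 and Shank2 are named only. The window at the most upstream start that the table gives for each of the 5 genes is shown, since Nlgn1 and Homer1 were called at day 1 and Nrxn3, Nlgn2 and Dlg4 at day 13 but not at day 1. Capitals mark the E-box letters CANNTG, the hexamer that proneural factors and many other helix-loop-helix proteins bind. CANNTG reads the same on both strands, and the forms CAGATG (or CATCTG on the other strand) and CAGCTG that were also searched are special cases of it. The windows are chr12:88794254-88794553 (Nrxn3, plus strand), chr3:26331860-26332159 (Nlgn1, minus strand), chr11:69837735-69838034 (Nlgn2, minus strand), chr11:70016953-70017252 (Dlg4, plus strand) and chr13:93303507-93303806 (Homer1, plus strand), and they read:
Nrxn3: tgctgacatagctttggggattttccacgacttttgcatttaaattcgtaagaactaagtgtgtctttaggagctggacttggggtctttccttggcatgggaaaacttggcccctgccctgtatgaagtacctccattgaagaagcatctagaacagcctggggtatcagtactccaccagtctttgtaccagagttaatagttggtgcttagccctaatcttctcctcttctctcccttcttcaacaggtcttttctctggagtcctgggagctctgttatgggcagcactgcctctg
Nlgn1: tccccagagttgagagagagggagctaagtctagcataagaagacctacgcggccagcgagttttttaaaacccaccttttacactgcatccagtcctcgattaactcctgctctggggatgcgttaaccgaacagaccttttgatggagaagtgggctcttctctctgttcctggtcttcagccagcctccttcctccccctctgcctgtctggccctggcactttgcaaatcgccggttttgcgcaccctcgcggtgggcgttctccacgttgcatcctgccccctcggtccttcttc
Nlgn2: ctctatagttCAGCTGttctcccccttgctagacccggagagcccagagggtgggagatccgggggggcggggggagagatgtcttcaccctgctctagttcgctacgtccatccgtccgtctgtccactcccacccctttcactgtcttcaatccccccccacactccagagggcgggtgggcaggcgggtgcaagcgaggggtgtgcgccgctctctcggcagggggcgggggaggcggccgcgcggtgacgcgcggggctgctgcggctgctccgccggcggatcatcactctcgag
Dlg4: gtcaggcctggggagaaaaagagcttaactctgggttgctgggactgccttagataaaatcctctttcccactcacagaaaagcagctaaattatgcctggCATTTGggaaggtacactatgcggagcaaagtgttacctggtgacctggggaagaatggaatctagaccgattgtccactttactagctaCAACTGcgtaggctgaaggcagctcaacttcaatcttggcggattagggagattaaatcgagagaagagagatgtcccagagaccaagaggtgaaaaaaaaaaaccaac
Homer1: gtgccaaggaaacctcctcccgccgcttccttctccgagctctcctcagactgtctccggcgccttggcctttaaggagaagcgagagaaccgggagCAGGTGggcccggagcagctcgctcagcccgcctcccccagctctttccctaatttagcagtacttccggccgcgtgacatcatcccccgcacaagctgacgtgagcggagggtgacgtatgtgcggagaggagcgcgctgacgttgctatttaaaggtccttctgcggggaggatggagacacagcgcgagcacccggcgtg

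The Nrxn3 and Nlgn1 windows shown hold 0 matches to CANNTG. The transcription start of the Nrxn3 window shown lies 71628 bases from the gene start annotated in GENCODE M21, and that of the Homer1 window 4122 bases. For Nlgn1, Dlg4 and Nlgn2 the distances are 551, 261 and 0 bases. Only the Nlgn2 window reaches the annotated gene start, and the annotated starts of Nrxn3, Nlgn1, Dlg4 and Homer1 were not searched. The Nlgn2 window holds 1, CAGCTG at position -240 from the start, the Homer1 window holds 1, CAGGTG at position -153, and the Dlg4 window holds 2. Of the windows not shown, the other Nlgn1 window and both other Dlg4 windows hold 0, the other Nrxn3 windows hold 1 and 5, and the other Homer1 window holds 5. No window of the 5 genes holds CAGATG or CATCTG. Of all 32851 promoters in the table, 72.3% hold CANNTG, 17.2% hold CAGATG or CATCTG and 16.3% hold CAGCTG, and a match describes letters and no binding.

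The comparisons asked which of the 9 genes differed from the controls at day 1 and at day 13, which changed from day 1 to day 13, and whether Neurog1 and Neurog3 differed. CPM are on library sizes scaled by TMM, and levels are given as the mean ± SD of 3 libraries. Changes are log2 fold changes ± standard error from edgeR's quasi-likelihood test, with p-values adjusted by Benjamini-Hochberg over the 16872 genes, and a gene was called at an adjusted p under 0.05. Against the controls, 2 of the 9 genes were called higher and 0 lower for each factor at day 1, and 7 were called higher and 0 lower for each factor at day 13. Over all genes tested, 6.78% were called higher and 5.42% lower for Neurog1 at day 1, and 7.19% and 5.59% for Neurog3. At day 13 these shares were 32.6% higher and 26.8% lower for Neurog1, and 31.2% and 26.4% for Neurog3. Libraries all above the controls were found for 16.5% (Neurog1) and 15.5% (Neurog3) of all genes at day 1. At day 13 this held for 34.9% and 33.8%. The median change of the 9 genes was 0.21 and 0.27 at day 1 (Neurog1, Neurog3) against 0.02 and 0.02 over all genes, and 3.90 and 2.72 at day 13 against 0.10 and 0.10, a description of genes picked with such results known. At day 13 all 9 fitted values were above 0, where 53.1% (Neurog1) and 52.8% (Neurog3) of all genes were. Those of Homer1, 0.09 and 0.05, were close to 0 and reached -0.02 and -0.12 under other settings. At day 1 the members with an unadjusted p under 0.05 (4 for Neurog1 and 3 for Neurog3) were all above 0. DESeq2 called 0 members lower against the controls. With library totals in place of TMM factors, the median over all genes at day 13 moved from 0.10 to 0.40 for both factors, and the share of higher among called genes from 54.9% to 67.3% (Neurog1) and from 54.1% to 67.5% (Neurog3); every day-13 rise of a member given below was larger than that shift and was called on either scale.

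**Figure D1:**
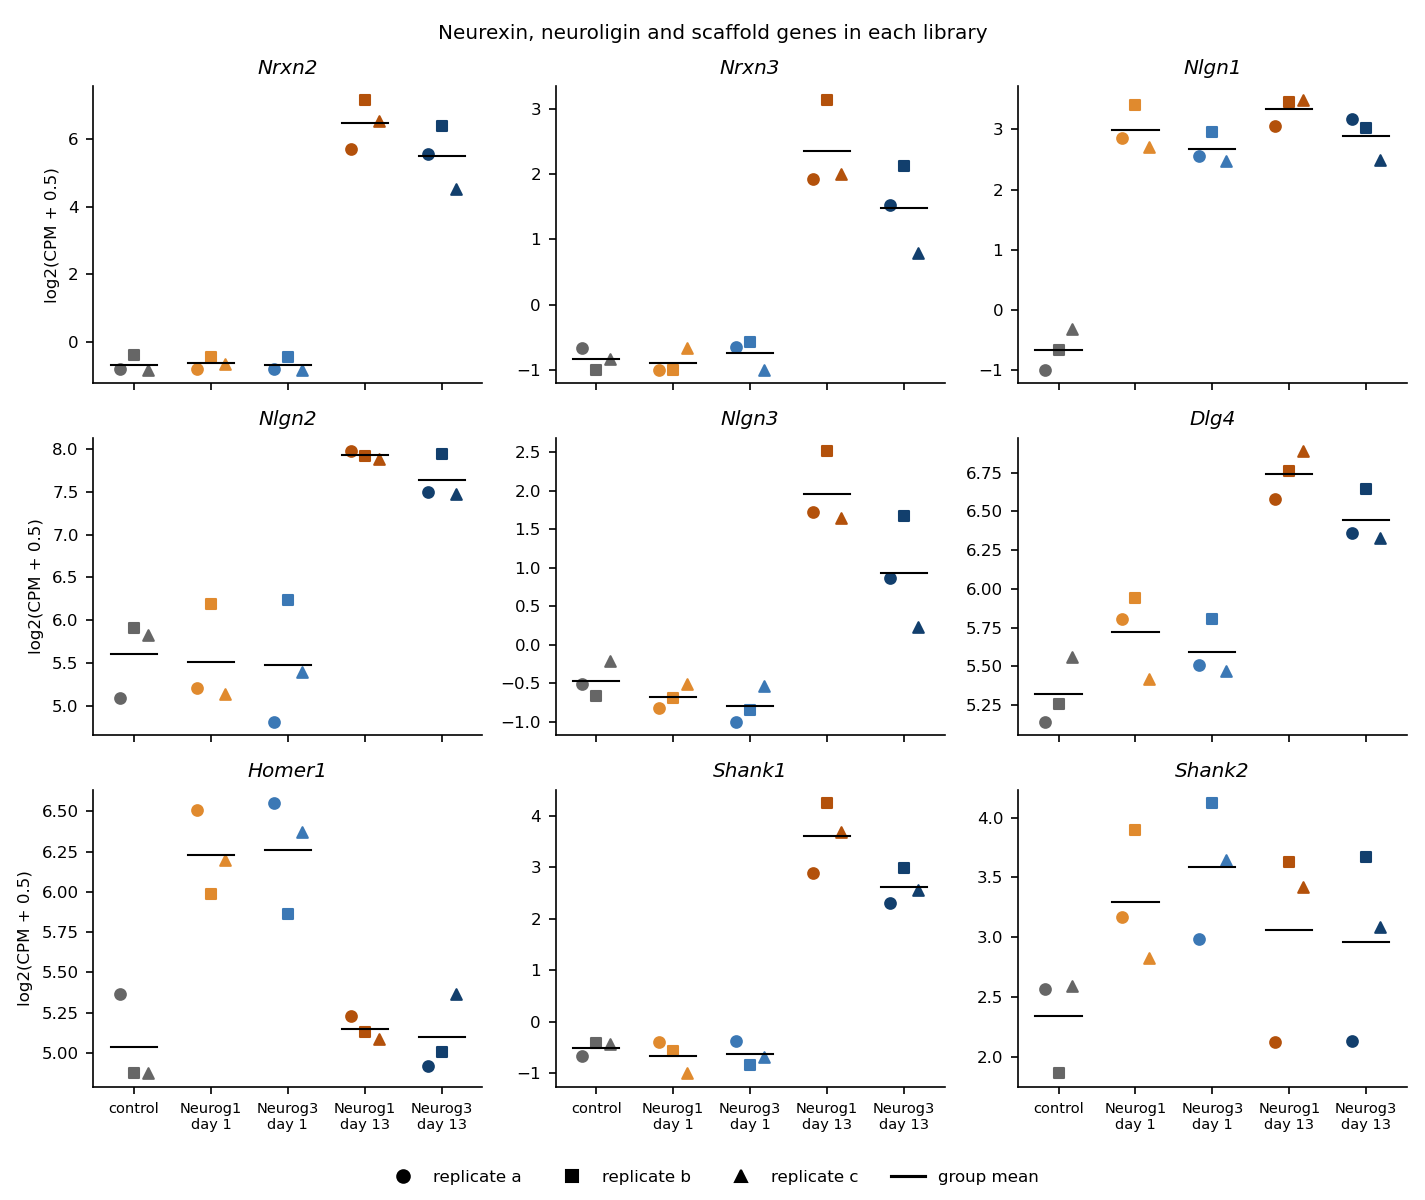
Level as log2(CPM + 0.5), on a y axis with its own scale in each panel, of the 9 genes in each of the 15 libraries by group; symbols mark libraries a, b and c and lines the group means. Nrxn2, Nrxn3, Nlgn3 and Shank1 lie near the floor in every control and day-1 library and above it in every day-13 library, Nlgn1 is above the controls from day 1, and Homer1 is high at day 1 only.

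Both neurexins of the list were close to silent in the controls and at day 1 and were present in every day-13 library. Nrxn2 (ENSMUSG00000033768, chr19:6418731-6544169, plus strand, mm10) had 0.0662, 0.256 and 0.0603 CPM in controls a, b and c, and 0.0658 to 0.235 CPM in the 6 day-1 libraries. At day 13 it had 51.3, 143 and 91.3 CPM with Neurog1 and 46.2, 83.0 and 22.6 CPM with Neurog3. Every day-13 library was above every earlier library, library b was the highest of each factor, and the libraries of the factors overlapped. The change from the controls was 9.47 ± 0.69 for Neurog1 (adjusted p = 9.95e-08) and 8.56 ± 0.68 for Neurog3 (adjusted p = 2.07e-07, edgeR's quasi-likelihood test). At day 1 it was 0.21 ± 1.15 (adjusted p = 0.955) and -0.01 ± 1.22 (adjusted p = 1), on 6 or 7 reads per group. The day-13 changes rest on a baseline of 6 reads and became 10.37 and 9.47 without control b, and the Neurog3 change from day 1, 8.57 ± 0.68, became 9.40 without Neurog3 day-1 library b.

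Nrxn3 (ENSMUSG00000066392, chr12:88722876-90334935, plus strand) is the longest of the 9 genes, at 1610 kb. Controls a, b and c held 2, 0 and 1 reads, Neurog1 at day 1 held 0, 0 and 2, and Neurog3 at day 1 held 2, 3 and 0. At day 13 the counts were 59, 162 and 69 with Neurog1 (3.31, 8.35 and 3.49 CPM) and 43, 72 and 22 with Neurog3 (2.39, 3.87 and 1.24 CPM). All 6 day-13 libraries were above all 9 others. Because the baseline had 3 reads, the ratio of summed counts is given with its 95% counting interval, which covers counting error only: 80.2 (27.2 to 391) for Neurog1 over the controls and 39.7 (13.3 to 195) for Neurog3. Both were called (adjusted p = 3.55e-05 and 0.00019, edgeR's quasi-likelihood test), also without any single library. The fitted Neurog1 change against the controls, 6.16 ± 0.89, was 7.03 without control a and 5.56 without Neurog1 day-13 library b; that of Neurog3, 5.14 ± 0.90, was 6.02 without control a. From day 1 to day 13 Nrxn3 rose with Neurog1 by a ratio of 120 (32.9 to 996; adjusted p = 3.09e-05) and with Neurog3 by 4.48 ± 0.84 on the log2 scale (adjusted p = 0.000371); without Neurog1 day-1 library c the Neurog1 baseline had 0 reads and the fitted value moved from 6.66 to 9.42.

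Of the neuroligins, Nlgn1 was up within a day, Nlgn2 was present throughout and rose by day 13, and Nlgn3 appeared at low level by day 13. Nlgn1 (ENSMUSG00000063887, chr3:25426215-26332460, minus strand) encodes the neuroligin that resides mainly at excitatory synapses. The controls held 0, 2 and 5 reads (0, 0.128 and 0.302 CPM). At day 1 it had 6.77, 10.1 and 6.06 CPM with Neurog1 and 5.41, 7.31 and 5.06 CPM with Neurog3, and at day 13 it had 7.85, 10.5 and 10.8 CPM and 8.50, 7.68 and 5.11 CPM. All 12 infected libraries were above all 3 controls, and the day-1 and day-13 libraries of each factor overlapped. The change from the controls was 5.63 ± 0.54 for Neurog1 at day 1 (adjusted p = 6.69e-06) and 5.27 ± 0.54 for Neurog3 (adjusted p = 1.21e-05). At day 13 it was 5.98 ± 0.54 (adjusted p = 5.09e-07) and 5.52 ± 0.54 (adjusted p = 1.02e-06, all by edgeR's quasi-likelihood test). From day 1 to day 13 the difference was 0.35 (95% interval -0.45 to 1.14) for Neurog1 and 0.26 (-0.54 to 1.06) for Neurog3, neither of them called. The size of the rise rests on 7 control reads: without control c the 4 changes were 6.71, 6.35, 7.04 and 6.59.

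Nlgn2 (ENSMUSG00000051790, chr11:69823122-69837784, minus strand) encodes the neuroligin of inhibitory synapses and had the highest mean of the 9 genes per kb of exon in every group, though with the longest transcript as the length Homer1 was above it in both day-1 groups (13.2 against 8.58 and 13.6 against 8.61 CPM per kb). It had 33.6, 59.8 and 56.1 CPM in the controls, 36.4, 72.2 and 34.8 CPM with Neurog1 at day 1, and 27.6, 74.8 and 41.6 CPM with Neurog3 at day 1. At day 13 it had 251, 242 and 236 CPM with Neurog1 and 181, 246 and 178 CPM with Neurog3. The control and day-1 libraries overlapped, day-1 library b was the highest of each factor, and all day-13 libraries lay above all others. The change from the controls at day 13 was 2.29 ± 0.35 (adjusted p = 6.39e-05) and 2.02 ± 0.35 (adjusted p = 0.000181) for Neurog1 and Neurog3. At day 1 it was -0.06 ± 0.34 (adjusted p = 0.956) and -0.05 ± 0.34 (adjusted p = 0.955, edgeR's quasi-likelihood test), and without library b of the factor it was -0.50 and -0.52, still not called. The day-1 libraries with the high Nlgn2 values are those with the high neuron marker sum, most of it Tubb3. They also held the most reads of the delivered factor at day 1. The part of either in the result was not tested.

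Nlgn3 (ENSMUSG00000031302, chrX:101299168-101325963, plus strand), a neuroligin found at excitatory and inhibitory synapses, had 3, 2 and 6 reads in the controls and 0 to 3 reads in each day-1 library. At day 13 the counts were 50, 101 and 52 with Neurog1 (2.80, 5.20 and 2.63 CPM) and 24, 50 and 12 with Neurog3 (1.33, 2.69 and 0.674 CPM). The day-13 libraries were all above the rest, and the highest Neurog3 library lay between the lowest and the highest Neurog1 libraries. The change from the controls was 3.90 ± 0.67 for Neurog1 (adjusted p = 0.00016) and 2.72 ± 0.67 for Neurog3 (adjusted p = 0.00278, edgeR's quasi-likelihood test). Without Neurog3 day-13 library b the latter was 2.06 (adjusted p = 0.0217). From day 1 the changes were 4.72 ± 0.72 and 4.11 ± 0.77, the latter 5.34 without Neurog3 day-1 library c and 3.46 without Neurog3 day-13 library b. Nlgn3 shares 41.2% of its exon bases with Gm21986, a gene on the same strand that held 3 to 37 reads per group, and reads of the shared part could not be assigned to one of them.

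The scaffolds divided by timing: Dlg4 and Shank1 rose by day 13, Homer1 rose at day 1 and fell back, and Shank2 was not called in any comparison. Dlg4 (ENSMUSG00000020886, chr11:70016942-70047522, plus strand) starts 179 kb beyond the end of Nlgn2 on the chromosome, and both genes rose at day 13. It had 34.8, 37.8 and 46.7 CPM in the controls and 42.2 to 61.0 CPM over the 6 day-1 libraries. At day 13 it had 95.2, 108 and 118 CPM with Neurog1 and 81.7, 99.4 and 80.0 CPM with Neurog3. The day-1 libraries overlapped the controls and the day-13 libraries lay above both. The change from the controls at day 13 was 1.43 ± 0.19 (adjusted p = 1.5e-05) for Neurog1 and 1.13 ± 0.19 (adjusted p = 0.000119) for Neurog3. At day 1 it was 0.41 ± 0.19 (adjusted p = 0.186) and 0.27 ± 0.19 (adjusted p = 0.396, edgeR's quasi-likelihood test).

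Homer1 (ENSMUSG00000007617, chr13:93299635-93405129, plus strand) was the one member called lower from day 1 to day 13. It had 40.8, 28.8 and 28.9 CPM in the controls, 90.6, 63.0 and 72.9 CPM with Neurog1 at day 1 and 93.3, 57.7 and 82.3 CPM with Neurog3 at day 1. At day 13 it had 37.0, 34.6 and 33.5 CPM with Neurog1 and 29.8, 31.6 and 40.7 CPM with Neurog3. All 6 day-1 libraries were above all controls and all day-13 libraries, and the latter overlapped the controls. The rise at day 1 was 1.20 ± 0.22 for Neurog1 (adjusted p = 0.00152) and 1.24 ± 0.22 for Neurog3 (adjusted p = 0.00112). Against the controls at day 13 the difference was 0.09 (95% interval -0.36 to 0.55) and 0.05 (-0.40 to 0.51), neither called. From day 1 to day 13 Homer1 fell by 1.11 with Neurog1 (SE 0.22, adjusted p = 0.000494) and fell by 1.19 with Neurog3 (SE 0.22, adjusted p = 0.000305, edgeR's quasi-likelihood test), and on library totals in place of TMM it fell by 0.82 and fell by 0.93, both still called. From day 1 to day 13, 6 of the 9 genes were called higher and 1 lower for each factor, against 30.6% of all genes higher and 27.3% lower with Neurog1, and 29% higher and 26.8% lower with Neurog3.

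Shank1 (ENSMUSG00000038738, chr7:44310253-44360572, plus strand), a core scaffold of the postsynaptic density, had 0.132, 0.256 and 0.241 CPM in the controls and 0 to 0.278 CPM in the day-1 libraries. At day 13 it had 6.96, 18.5 and 12.3 CPM with Neurog1 and 4.45, 7.47 and 5.39 CPM with Neurog3. Every day-13 library was above every other library, and the highest Neurog3 library passed the lowest Neurog1 library. The change from the controls was 5.85 ± 0.61 (adjusted p = 1.84e-06) and 4.73 ± 0.60 (adjusted p = 1.12e-05, edgeR's quasi-likelihood test), on 10 control reads. From day 1 the changes were 6.34 ± 0.64 and 5.21 ± 0.63, and they were 6.97 and 5.87 without day-1 library a of the factor.

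Shank2 (ENSMUSG00000037541, chr7:144001928-144424494, plus strand), its paralogue on the same chromosome, had 5.43, 3.14 and 5.55 CPM in the controls. At day 1 it had 8.48, 14.4 and 6.59 CPM with Neurog1 and 7.43, 16.9 and 12 CPM with Neurog3, and at day 13 it had 3.87, 11.9 and 10.2 CPM and 3.89, 12.2 and 7.98 CPM. All day-1 libraries were above all controls, library b was the highest of each infected group, and the day-13 libraries overlapped both. At day 1 the difference from the controls was 1.06 ± 0.48 (adjusted p = 0.187) and 1.37 ± 0.48 (adjusted p = 0.0781) for Neurog1 and Neurog3, not called by edgeR's quasi-likelihood test. Over all genes tested, 16.5% (Neurog1) and 15.5% (Neurog3) had day-1 libraries all above the controls. With the replicate letter as a replicate block within each day, the day-1 differences were 1.0 (adjusted p = 0.0173) and 1.30 (adjusted p = 0.00352) and were called. The same block also called Shank2 higher at day 13 with Neurog1 (0.73, adjusted p = 0.0288) and lower from day 1 to day 13 with Neurog3 (-0.68, adjusted p = 0.0355). The controls have no term in this block, and comparisons with them or between days are not made within a letter. The block leaves the spread between letters out of the error of these comparisons, so their p-values can be too small. Over 22 alternatives the adjusted p of the Neurog3 day-1 difference ran from 0.00352 to 0.247, so the call depends on the setting.

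**Figure D2:**
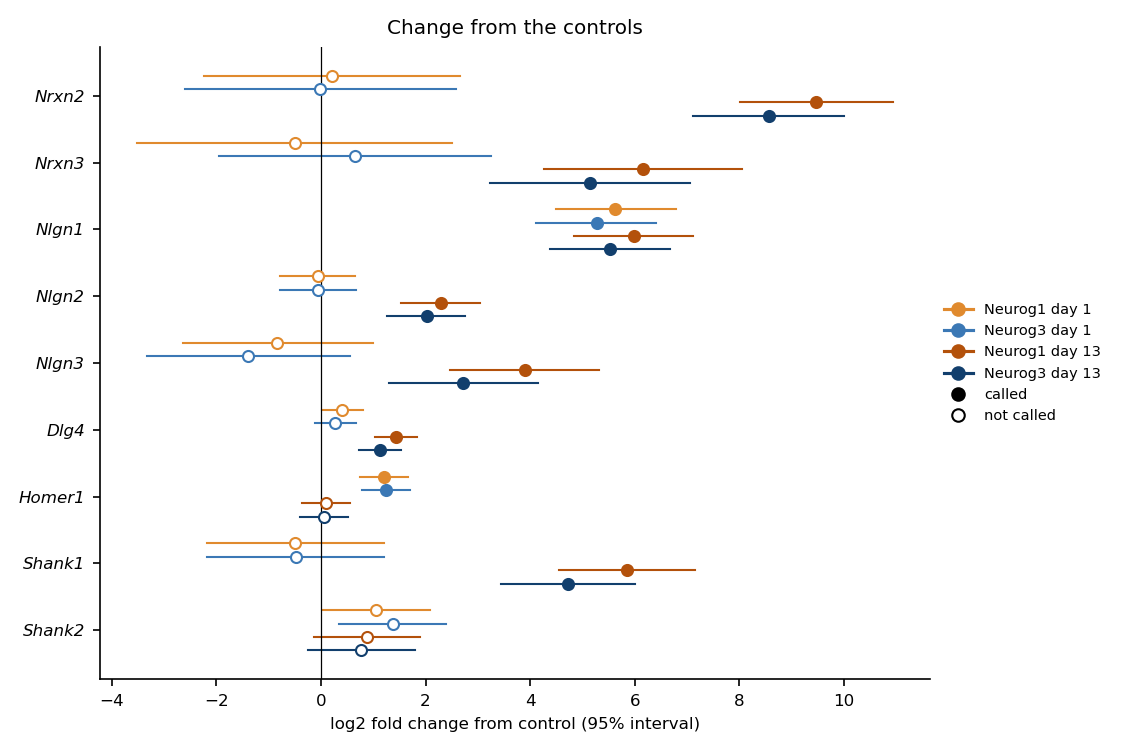
Log2 fold change from the controls with its 95% interval for the 9 genes, by factor and day; filled points were called at an adjusted p under 0.05 (edgeR's quasi-likelihood test). Nlgn1 and Homer1 were called at day 1, and all genes but Homer1 and Shank2 at day 13.

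Per kb of exon, which allows genes to be compared, the order of the mean levels differed between the controls and day 13. In the controls Nlgn2 (8.61 ± 2.45 CPM per kb) was followed by Dlg4 (3.0) and Homer1 (2.74), whose libraries overlapped, then Shank2 (0.437), and the other 5 genes were at 0.0051 to 0.0248, where single reads set the order. At day 13 with Neurog1, Nlgn2 (42.0) was followed by Dlg4 (8.08) and Nrxn2 (6.89), whose libraries overlapped, then Homer1 (2.93), Shank1 (1.20), Shank2 (0.803), Nlgn1 (0.725), Nrxn3 (0.401) and Nlgn3 (0.383). With Neurog3 the order was Nlgn2 (34.9), Dlg4 (6.57), Nrxn2 (3.67), Homer1 (2.84), Shank2 (0.745), Shank1 (0.549), Nlgn1 (0.529), Nrxn3 (0.198) and Nlgn3 (0.169). Shank1, Shank2 and Nlgn1 lay within their spread of one another in both day-13 groups, and so did Nrxn3 and Nlgn3. Divided by the longest transcript in place of all exon bases, the order with Neurog1 was the same and Nlgn1 and Shank1 exchanged places with Neurog3.

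No member was called between Neurog1 and Neurog3 at either day. The main test fits 1 mean per group and does not pair libraries of the same letter, which the replicate block below does. At day 1, 0 of the 9 genes were called, with an adjusted p of 1 for each 0 at an unadjusted p under 0.05 and 0 called by DESeq2, and 0.00593% of all genes were called higher and 0.00593% lower with Neurog3. At day 13, 0 of the 9 genes were called by edgeR's quasi-likelihood test, against 0.00593% of all genes higher and 0.0178% lower with Neurog3, and DESeq2 also called 0 of the 9. All 9 fitted day-13 values were lower with Neurog3, where 51.3% of all genes were, and the median was -0.45 against -0.01 over all genes. An unadjusted p under 0.05 was reached by 3 genes, Nrxn2 (-0.91, 95% interval -1.78 to -0.04, adjusted p = 0.85), Nlgn3 (-1.17, adjusted p = 0.901) and Shank1 (-1.13, -2.09 to -0.17, adjusted p = 0.738). The intervals still hold sizeable differences in most genes, the narrowest being that of Dlg4 (-0.69 to 0.09) and of Homer1 (-0.50 to 0.41). Within pairs of the same letter, Nrxn2, Nrxn3, Nlgn3, Dlg4 and Shank1 were lower with Neurog3 in 3 of 3 pairs, Nlgn1, Nlgn2 and Homer1 in 2 of 3 and Shank2 in 1 of 3. The share of all genes lower in 3 of 3 pairs was not counted. All 9 genes share the same 3 pairs, so these signs are a description and show no difference between the factors. With the replicate block within day, 0 of the 9 were called, with Nrxn2 at -0.97 (adjusted p = 0.137), Shank1 at -1.06 (adjusted p = 0.142) and Nlgn3 at -1.28 (adjusted p = 0.18, edgeR's quasi-likelihood test). The neuron marker sum in libraries a, b and c was 686, 1430 and 1610 CPM with Neurog1 and 777, 923 and 687 CPM with Neurog3, lower with Neurog3 in b and c and higher in a. In the interaction test of whether Neurog3 and Neurog1 differ in their change over time, 0 of the 9 genes were called (0 at an unadjusted p under 0.05, every adjusted p = 1, and 0 called by DESeq2, edgeR's quasi-likelihood test otherwise). Over all genes, 0% were called higher and 0% lower in that test, with 471 at an unadjusted p under 0.05, and DESeq2 called 0 higher and 2 lower.

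**Figure D3:**
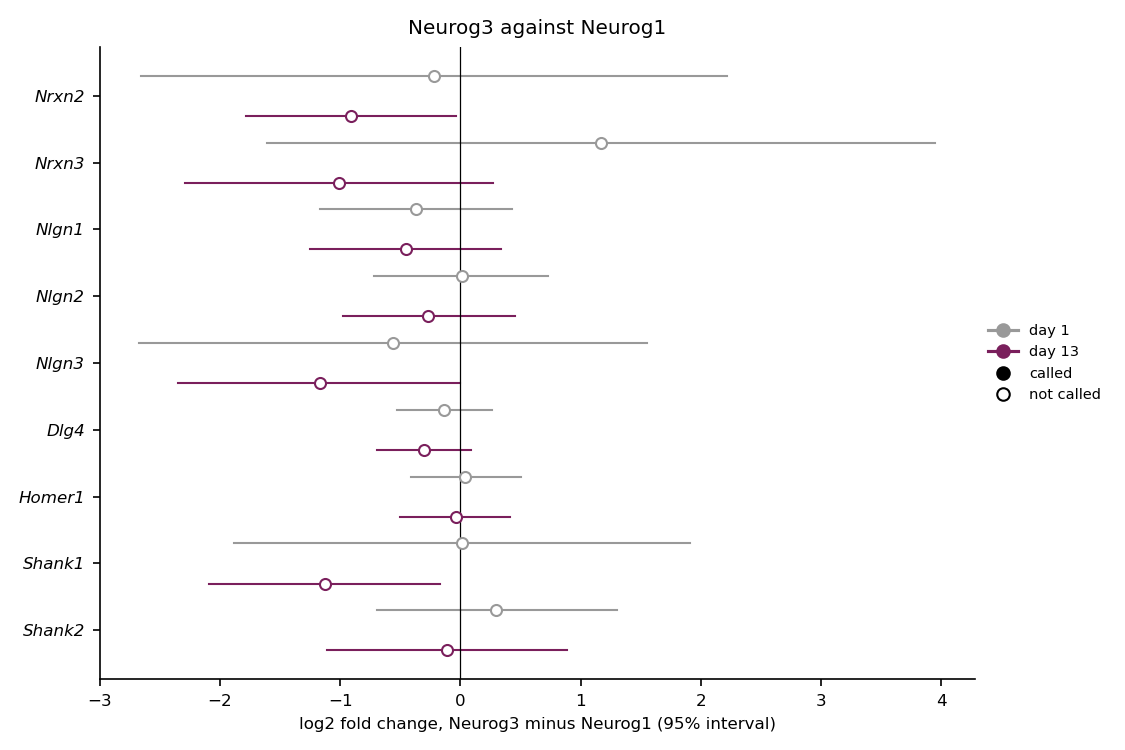
Log2 fold change of Neurog3 over Neurog1 at day 1 and day 13 with its 95% interval for the 9 genes; open points were not called. All 9 day-13 values lie below 0, and 0 of the 9 were called at either day.

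The paralogues of the scaffolds did not all follow their relatives. Homer2 rose at day 1 as Homer1 did (2.60 ± 0.30 and 2.67, adjusted p = 3.26e-05 and 2.73e-05, edgeR's quasi-likelihood test) and stood at 62.0 and 77.2 CPM at day 13, above the 7.31 CPM of the controls. Homer3 was not called against the controls at day 1 (0.36 and 0.43, adjusted p = 0.202 and 0.111), though its day-1 libraries were all above the controls. This held for 16.5% (Neurog1) and 15.5% (Neurog3) of all genes. From day 1 to day 13 Homer3 was called lower, as Homer1 was (-0.63, adjusted p = 0.00462, and -0.95, adjusted p = 0.000228, edgeR's quasi-likelihood test). Against the controls it was lower at day 13 with Neurog3 (-0.53, adjusted p = 0.0134, and 0.0576 without control c). Homer3 shares 25.4% of its exon bases with Ddx49 on the other strand, and without a known strand setting their reads cannot be told apart.

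Shank3 was higher than the controls at day 1 (3.31 ± 0.74 and 3.42, adjusted p = 0.00719 and 0.00589) and at day 13 (5.19 and 5.75, adjusted p = 5.08e-05 and 2.48e-05). Its day-1 level was highest in library b, at 9.80, 30 and 10.5 CPM with Neurog1 and 4.17, 37.6 and 12.5 CPM with Neurog3. These b libraries had the high neuron marker sum, most of it Tubb3, and the most reads of the delivered factor at day 1. The part of either was not tested. Without library b of the factor the day-1 changes were 2.57 (adjusted p = 0.0397) and 2.31 (adjusted p = 0.038). Shank3 reached 61.7 and 91.2 CPM at day 13, against 1.68 CPM in the controls. Of the genes close to Dlg4, Dlg1 (SAP97) was lower than the controls in all 4 comparisons (-0.66, -0.56, -0.58 and -0.57, adjusted p = 0.0208, 0.0464, 0.00939 and 0.0111). Dlg2 (PSD-93) was lower at day 1 (-2.24 and -2.12, adjusted p = 0.0187 and 0.0232) and higher at day 13 (2.79 and 1.60, adjusted p = 0.000249 and 0.0117). Dlg3 (SAP102) was higher at day 13 only (0.67 and 1.13, adjusted p = 0.0118 and 0.000327, edgeR's quasi-likelihood test). Several of these calls were lost when a single library was left out. Without control a, Dlg1 was at -0.55 (adjusted p = 0.0814) and -0.43 (adjusted p = 0.16) at day 1 and Dlg2 at 1.21 (adjusted p = 0.0515) at day 13 with Neurog3. The Dlg1 call with Neurog3 at day 1 was near the threshold. It was also lost without libraries outside its comparison, such as Neurog1 day-13 library a (-0.57, adjusted p = 0.0521). Without control b, Dlg2 was at -1.79 (adjusted p = 0.0889) and -1.65 (adjusted p = 0.112) at day 1, and without Neurog1 day-13 library c, Dlg3 was at 0.51 (adjusted p = 0.0663). Both Dlg2 day-1 calls were also lost without library b of the factor (-1.9, adjusted p = 0.0894, and -1.9, adjusted p = 0.0903).

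**Figure D4:**
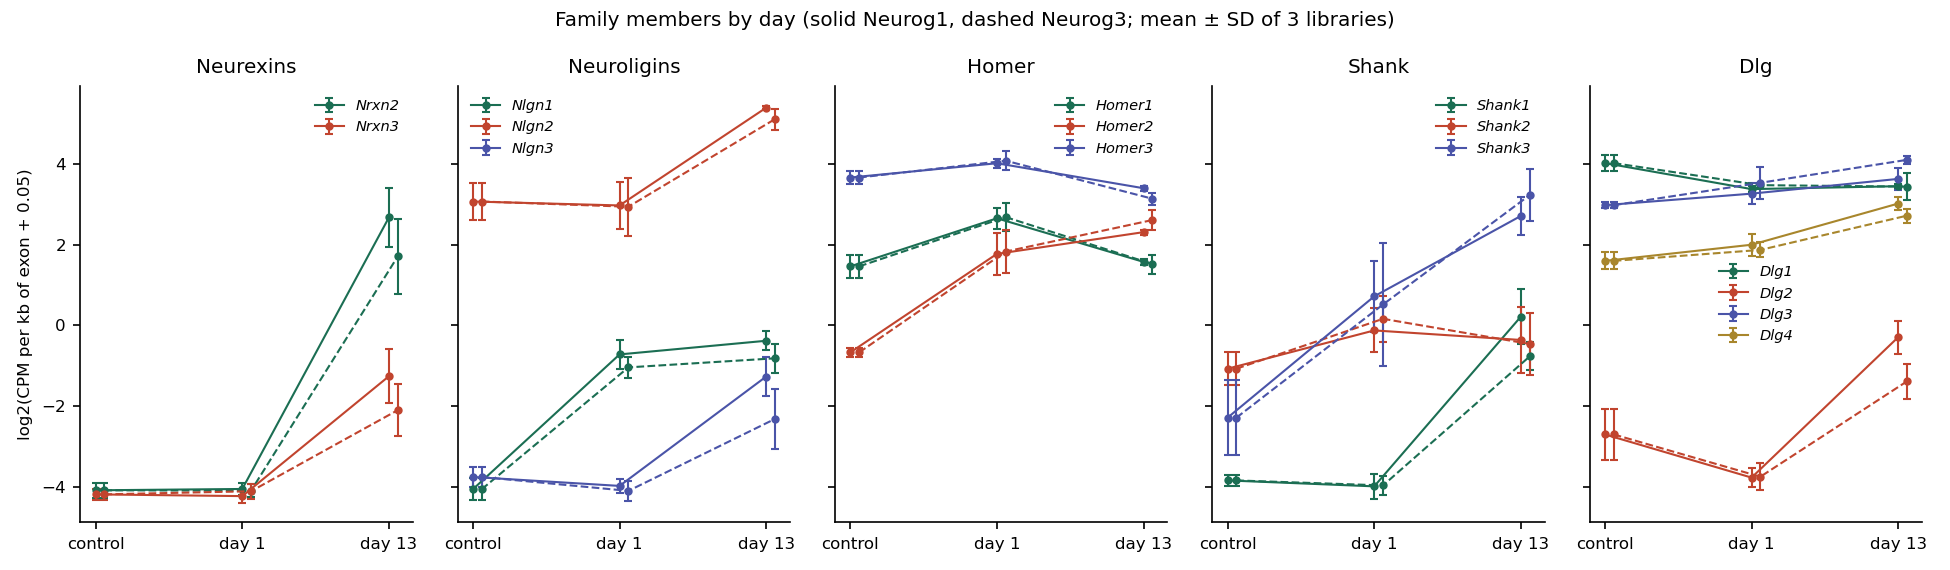
Mean ± SD over 3 libraries of log2(CPM per kb of exon + 0.05) for Nrxn2, Nrxn3, the 3 neuroligins and genes of the Homer, Shank and Dlg families in the controls, at day 1 and at day 13; solid lines are Neurog1 and dashed lines Neurog3, and both start from the same controls. The culture time of the controls is not stated, so they are no known time 0. Nrxn2 and Nrxn3 leave the floor between day 1 and day 13. At day 13 Homer1 is near its control level while Homer2 is above it, and Shank1 and Shank3 are above their control levels.

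Other genes of the same synaptic machinery were counted from lists. Of 10 genes whose products bind neurexins or neurexin complexes inside the terminal, 8 rose and 1 fell with Neurog1 at day 13 (median 1.88), and 6 rose and 1 fell with Neurog3 (median 1.23). Cask, a scaffold that binds the neurexin tail, rose by 1.18 ± 0.19 and 0.91 ± 0.19, and Apba1 (Mint1), its partner, by 4.27 ± 0.53 and 4.02 ± 0.52. Lin7c, another partner of Cask, fell by 0.94 (SE 0.24, adjusted p = 0.00308) with Neurog1 and fell by 0.98 (adjusted p = 0.00245) with Neurog3. Ppfia1 (liprin-alpha-1) was at -0.03 ± 0.17 and 0.04 ± 0.17, not called. At day 1, 0 of these 10 rose with either factor by edgeR's quasi-likelihood test (0 at an unadjusted p under 0.05 and 0 by DESeq2). With Neurog1 0 fell (2 at an unadjusted p under 0.05, 0 by DESeq2), and with Neurog3 Lin7b was the one that fell (-1.89 ± 0.59, adjusted p = 0.0446, and 0.147 without control c). The Lin7b call was near the threshold and was also lost without control a (adjusted p = 0.0543) and without control b (adjusted p = 0.0741).

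Of 51 other synaptic adhesion molecules and organisers, 49 were tested, and 40 rose and 0 fell with Neurog1 at day 13, while 38 rose and 1 fell with Neurog3 (medians 3.11 and 2.94). The 0 that fell with Neurog1 by edgeR's quasi-likelihood test was also 0 at an unadjusted p under 0.05 and by DESeq2. Ptprs, a presynaptic receptor phosphatase that acts beside the neurexins, rose by 3.11 ± 0.39 and 3.33 ± 0.40, and Cadm3, a cell adhesion molecule, by 7.97 ± 0.82 and 8.38 ± 0.83. Flrt2, a ligand of latrophilins, fell at day 1 (-1.48 ± 0.28 and -1.62 ± 0.28) and was the one that fell at day 13 with Neurog3 (-0.67 ± 0.27, adjusted p = 0.0453). That call was lost by DESeq2 (adjusted p = 0.0548) and without control a (-0.29, adjusted p = 0.342), and the libraries overlapped the controls. At day 1, 6 rose and 4 fell with Neurog1 and 6 rose and 5 fell with Neurog3, among them Mdga1, which binds neuroligins and blocks the neurexin site, at 1.58 ± 0.40 and 1.30 ± 0.40. Without library b of the factor Mdga1 was at 1.06 (adjusted p = 0.103) and 0.86 (adjusted p = 0.208), not called. Both Mdga1 calls were also lost without control a (1.45, adjusted p = 0.0606, and 1.18, adjusted p = 0.118).

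Of 24 other genes of the excitatory postsynaptic density, 23 were tested; 17 rose and 2 fell with Neurog1 at day 13, and 17 rose and 3 fell with Neurog3 (medians 1.74 and 1.31). Dlgap4, of the family that links PSD-95 to Shank proteins, rose by 0.85 ± 0.16 and 0.62 ± 0.16, and Iqsec1, an exchange factor for ARF GTPases, by 1.74 ± 0.41 and 1.83 ± 0.41. Cttn (cortactin), an actin-binding partner of Shank proteins, fell by 0.68 (adjusted p = 0.00525) and fell by 0.78 (adjusted p = 0.00209). At day 1, 3 rose and 2 fell with Neurog1 and 5 rose and 1 fell with Neurog3, with Baiap2 (IRSp53), another Shank partner, at 0.85 ± 0.17 and 0.65 ± 0.17, the latter not called without control b (0.54, adjusted p = 0.0966). Of 5 genes of the inhibitory postsynapse, 4 rose with each factor at day 13 (medians 1.95 and 2.10), among them Lhfpl4, which binds Nlgn2, at 6.54 ± 0.68 and 6.36 ± 0.68. Gphn (gephyrin), the scaffold that Nlgn2 binds, was at 0.43 ± 0.19 (adjusted p = 0.0606) and 0.35 ± 0.19 (adjusted p = 0.123), not called. Every day-13 library was above the controls for Gphn, as for 34.9% (Neurog1) and 33.8% (Neurog3) of all genes tested. DESeq2 called Gphn higher with Neurog1 (0.44, adjusted p = 0.0373), which makes 5 of 5 by that tool. At day 1, 0 of the 5 were called by edgeR's quasi-likelihood test; with Neurog1 1 was lower at an unadjusted p under 0.05 and by DESeq2, and with Neurog3 0 were. At day 13, 0 of the 5 fell with either factor, by edgeR, at an unadjusted p under 0.05 or by DESeq2. The counts of all lists stand beside 32.6% and 31.2% of all genes called higher and 26.8% and 26.4% lower at day 13 (Neurog1, Neurog3). At day 1 the shares of all genes were 6.78% higher and 5.42% lower for Neurog1, and 7.19% and 5.59% for Neurog3. The counts claim nothing particular to a list.

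**Figure D5:**
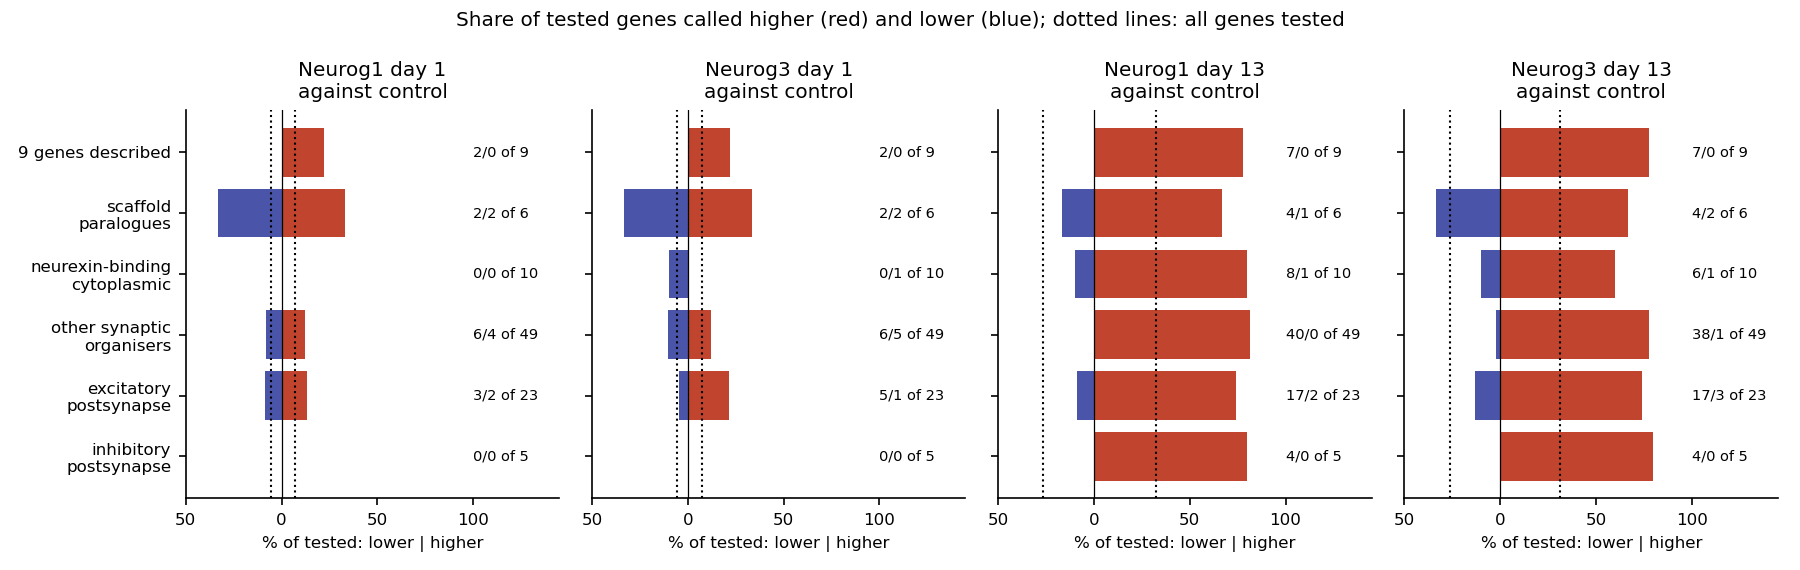
Percent of the tested genes of each synaptic list called higher and lower than the controls (edgeR's quasi-likelihood test, adjusted p under 0.05) in the 4 comparisons with the controls; dotted lines give the percent over all 16872 genes. At day 13 with Neurog1, 40 of 49 adhesion molecules, 17 of 23 excitatory postsynaptic genes and 4 of 5 inhibitory postsynaptic genes were called higher.

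The genes with the most similar profile over the 5 group means were sought among 14415 candidates by the root mean square difference of centred log2(CPM + 0.5). For Nrxn2 the nearest were Elavl3, a neuronal RNA-binding protein (0.063), and Igsf21 (0.106), and for Shank1 they were C3 (0.067) and Cdk5r2 (0.069). Nlgn2 was nearest to P4htm (0.033) and Nav2 (0.05), Dlg4 to Stxbp5l (0.036) and Retreg2 (0.04), Nlgn3 to Pcdha3 (0.054) and Erbb4 (0.091), and Nrxn3 to Naaladl1 (0.062) and Dpf3 (0.064). Homer1, with its peak at day 1, was nearest to Vtcn1 (0.049) and Csnk2a2 (0.077), and Shank2 to Traf3 (0.041) and Plekhh1 (0.101). Nlgn1 had the least close neighbours, Plekhg1 (0.213) and Kcnh1 (0.222). Likeness over 5 group means of shared libraries is a description.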

How the data were processed

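PolyA RNA of 15 libraries was sequenced. The authors deposited unnormalized read counts for each Ensembl gene ID, in 1 column per library. CASAVA, HISAT2 and featureCounts were used with mm10, per the submitters' processing notes; versions, annotation release and strand setting are not stated, so reads of overlapping or antisense genes could not be told apart. Totals per library ran from 14869015 to 17859844.

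Computed here were symbols and coordinates from GENCODE M21 (42548 of 43432 IDs named), edgeR's expression filter (16872 genes left), TMM factors and the quasi-likelihood F test with 1 mean per group over all 15 libraries (edgeR 4.0.16, limma 3.58.1, R 4.3.3), with Benjamini-Hochberg adjustment and a threshold of 0.05. DESeq2 1.42.0 was an alternative. Log2 fold changes use a prior count of 0.125, and the standard error is the size of the change over the square root of F. Levels per kb divide by all annotated exon bases. There were 8 comparisons and 1 interaction, and comparisons with the controls share those 3 libraries. Scripts were tested on simulated data.

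The 9 genes and all lists were chosen with earlier results of these data known. The text names all 9, 6 paralogues of the scaffolds and, of each other synaptic list, up to 4 genes (the called ones and the uncalled one with the highest mean CPM), and the 2 nearest profiles per gene. Lists of cell markers are given by their sums.

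Same-letter libraries of the 2 factors deviated together within each day (r from 0.418 to 0.624 in 6 of 6 pairs over 0.1). From the data and the shared letters they were taken as paired within a day in the block within day and the signs of pairs. The main test did not use this pairing. Over all groups 15 of 30 same-letter pairs were over 0.1. No 2 libraries of a group agreed within sampling noise. Alternatives were other scalings, no filter, only the groups compared, DESeq2, a replicate block, each library left out and another gene length.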

Additional observations from a re-analysis of the deposited data

How the results depend on the processing

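Of 1770 values of a gene in a comparison under the alternatives, 1760 kept their side of the threshold, 10 became called (all of Shank2), 0 lost a call and 0 reversed; 61 changed sign where neither value was called. With a replicate block within each day, 2 members (Homer1 and Shank2) were lower from day 1 to day 13 with Neurog3 in place of 1. The block pairs the factors only, and its p-values between days or against the controls can be too small. That block changed no other count of members by over 1.5 times and called 0 of the 9 between the factors at either day, and a replicate block over all 15 libraries changed no member's call. Leaving out each library in turn, the number of members higher than the controls ran from 2 to 3 for Neurog3 at day 1 and from 7 to 8 for Neurog1 at day 13, and no other count moved. Both extra calls are Shank2 without Neurog1 day-13 library a (1.35, adjusted p = 0.0488, and 1.21, adjusted p = 0.0356); without library b of the factor its day-1 differences were 0.67 (adjusted p = 0.542) and 1.05 (adjusted p = 0.247). Shank2 with Neurog3 at day 1 was also called with no filter (adjusted p = 0.016), on the groups compared alone (0.0399) and by DESeq2 (0.0382), and with Neurog1 at day 13 on library totals (1.21, adjusted p just under the threshold). The cause was not tested.

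Over all genes, calls between the factors at day 13 went from 1 higher and 3 lower to 50 and 86 with the block within day, 32 and 61 with no filter and 30 and 56 by DESeq2. At day 1 against the controls, the block within day moved 1144 higher and 914 lower to 1870 and 1844 (Neurog1), and 1213 and 943 to 2001 and 1936 (Neurog3). These comparisons are not made within a letter, and the block leaves the spread between letters out of their error. On library totals the share of higher among called genes from day 1 to day 13 went from 52.9% to 65.4% (Neurog1) and from 51.9% to 63.1% (Neurog3). With the longest transcript as the length, 18 of 45 levels per kb moved by more than their SD. For the named paralogues and list genes, leaving out each library was added after seeing the data: of 1155 values against the controls, 82 lost a call, 7 gained one and 0 reversed. The calls lost at day 13 were of Dlg2, Dlg3, Flrt2 and Homer3. More genes lost a call at day 1: Baiap2, Cnksr2, Dlg1, Dlg2, Dlgap4, Iqsec1, Lin7b, Mdga1, Ptprs and Sipa1l1. Depth limits Nrxn2, Nrxn3, Nlgn1, Nlgn3 and Shank1, whose control groups hold 3 to 11 reads each, so the size of their changes is less firm than their direction.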
